A study of Mus musculus with 2 samples.

Results

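Drosha-independent miRNAs were examined as a group in jejunal tunica muscularis, the outer muscle layers of the gut wall, of mice at postnatal day 15. The group comprised every mature entry, from either arm, of 6 hairpins, namely those of miR-320, miR-484, miR-702, miR-877, miR-1224 and miR-1981. Members were chosen by name, without use of their values, and 9 mature entries were listed among 1080 mature entries and 1147 entries in all. These were mmu-miR-484, mmu-miR-320-3p, miR-320-5p, miR-1981-5p, miR-1981-3p, miR-877-5p, miR-877-3p, miR-1224-5p and miR-702-5p. The names miR-702-3p and miR-1224-3p were not listed.

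Both samples are labelled as C57BL/6 mice with a *Cre*-eGFP transgene under the *Myh11* promoter, which is active in smooth muscle cells, and with Dnmt1lox/lox alleles. *Dnmt1* encodes the maintenance DNA methyltransferase. *Dnmt1*-KO lost it where *Cre* was active, and *Dnmt1*-WT is given as wild type. The paper that reported these data writes the *Dnmt1*-WT genotype with the *Cre*-eGFP transgene alone. The lox/lox alleles on the label of that sample were not resolved here. The RNA was that of the whole muscle wall, so cells without *Cre* activity were measured together with smooth muscle cells. There was 1 library per genotype, from males and females, and whether their small RNA was pooled is not given in the sources used here. The spread between animals could therefore not be estimated, and each comparison is between 2 libraries. The title and genotype of each sample were followed, although the free-text description of the *Dnmt1*-WT sample gives the mutant genotype. Small RNA reads do not measure *Dnmt1* itself and did not check the labels.

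Most miRNAs are cut from a long primary transcript by the nuclear enzyme Drosha with its partner DGCR8, and the released hairpin is then cut by Dicer. Mirtrons bypass Drosha because the hairpin is a short intron: splicing releases it as a lariat, which is debranched and folds into a Dicer substrate. The precursor of miR-320 bypasses Drosha in another way, since transcription starts at the 5′ end of the hairpin and leaves a capped precursor. miR-484 is likewise made without Drosha. The level of such miRNAs thus follows transcription or splicing of the locus without the Drosha step that canonical miRNAs share. The question here was whether they kept their level in *Dnmt1*-KO where canonical miRNAs shifted.

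In the annotation, 3 of the mirtron hairpins span a whole intron, and their sequences are shown with that of Mir484. The sequences below are those of RefSeq on build GRCm38.p6, given 5′ to 3′ as RNA, and they were found for 5 of the 6 hairpins. In the first 3, capitals mark the first 2 and the last 2 bases, which are also the ends of the intron. In the last, capitals mark mature miR-484 on the 5′ arm.
Mir877: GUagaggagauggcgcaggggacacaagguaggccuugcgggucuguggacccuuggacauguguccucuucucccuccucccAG
Mir1224: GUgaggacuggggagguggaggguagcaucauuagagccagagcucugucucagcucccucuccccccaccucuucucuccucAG
Mir1981: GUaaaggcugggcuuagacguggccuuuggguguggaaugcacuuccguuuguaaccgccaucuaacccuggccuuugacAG
Mir484: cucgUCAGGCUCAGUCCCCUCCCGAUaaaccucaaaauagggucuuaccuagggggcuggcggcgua

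On GENCODE M21 (GRCm38), Mir877 (chr17:35960730-35960814, minus strand) filled intron 12 of the transcript Abcf1-201 base for base. Mir1224 (chr16:20604452-20604536, plus strand) filled intron 22 of Vwa5b2-202 in the same way, and Mir1981 (chr1:184822407-184822488, minus strand) filled intron 5 of Marc2-201. *Abcf1* encodes an ABC-family protein of translation initiation, and *Marc2* a mitochondrial reductase. Of the 1005 hairpins in the sequence table, 16 (1.59%) filled an annotated intron, and 30 (2.99%) began with GU and ended with AG. Mir702 (chr5:136991433-136991541, plus strand) did not fill its intron. It began 9 bases within an exon of *Plod3*, a lysyl hydroxylase of collagen, and stopped 2 bases before the end of intron 13, which has 102 bases. Mir484 (chr16:14159626-14159692, plus strand) lay in no annotated exon on its own strand and overlapped 19 bases of an antisense exon of *Marf1*.

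**Figure D1:**
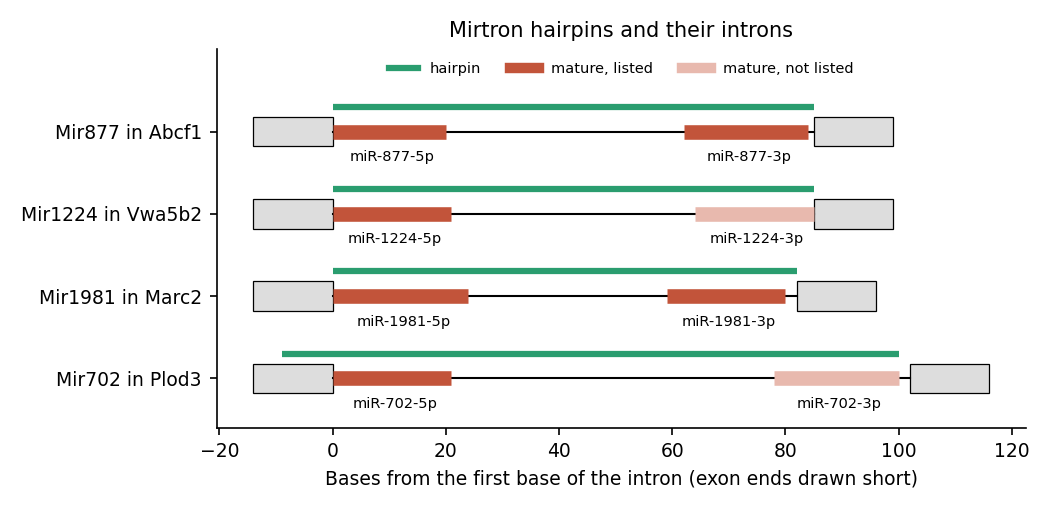
Position of 4 mirtron hairpins (green) and their mature products (red if listed, pale if not listed) in bases from the first base of the host intron, with grey boxes for the flanking exons, drawn short. All 4 products of the 5′ arm begin at the first base of the intron, and the hairpins of Mir877, Mir1224 and Mir1981 span the intron from end to end.

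The mature sequences below carry the seed, bases 2 to 8 from the 5′ end, in capitals, because the seed sets which mRNAs a miRNA can pair with.
miR-484: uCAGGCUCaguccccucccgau
miR-1981-5p: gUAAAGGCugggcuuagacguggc
miR-1981-3p: cAUCUAACccuggccuuugac
miR-877-5p: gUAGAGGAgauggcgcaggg
miR-877-3p: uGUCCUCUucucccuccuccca
miR-1224-5p: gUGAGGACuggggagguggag
miR-702-5p: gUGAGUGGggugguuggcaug
No 2 of these 7 seeds were the same, and no other listed miRNA with a known sequence shared any of them. Each 5p product of a mirtron began with GU, the splice donor, as did 3.57% of the 1738 mature sequences in the table. Starting at the first base of an annotated intron was found for 22 of the 1738 (1.27%). The share of G and C in these 7 ran from 52.4% in miR-1981-3p to 66.7% in miR-1224-5p. All lay within the 5th to 95th percentile of 918 listed miRNAs with a sequence, 34.8 to 68.2%, and above their median of 50%.

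miR-484 and miR-320-3p were abundant and the other members were not, as the plot of levels shows. Levels below are deposited values, where 1 unit is close to 1 read, so they compare read numbers and not molecules of different miRNAs. miR-484 stood at 3389.6 in *Dnmt1*-WT and 1704.2 in *Dnmt1*-KO. miR-320-3p stood at 2032.8 and 1698.2. In WT the counting intervals of these 2 levels were apart, with miR-484 higher, whereas in KO they overlapped. By level they ranked 76 and 97 of 1080 mature entries in WT, and 108 and 109 in KO.

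The mirtrons were read less often than either of them. miR-1981-5p stood at 253.7 in WT and 150.6 in KO, and its other arm, miR-1981-3p, at 96.3 and 49.9. miR-877-5p stood at 51.1 and 95.7. The order of these last 2 entries was therefore exchanged between the libraries, and in each library their counting intervals did not overlap. miR-1224-5p stood at 37.1 and 38.9, and could not be told apart by counting error from miR-877-5p in WT or from miR-1981-3p in KO. The remaining entries were near the limit of detection, which was taken as 3 reads. miR-320-5p stood at 11 in WT and 3 in KO, miR-877-3p at 7 and 9, and miR-702-5p at 2 and 0. All 9 entries together made up 0.102% of all reads in WT and 0.0789% in KO.

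**Figure D2:**
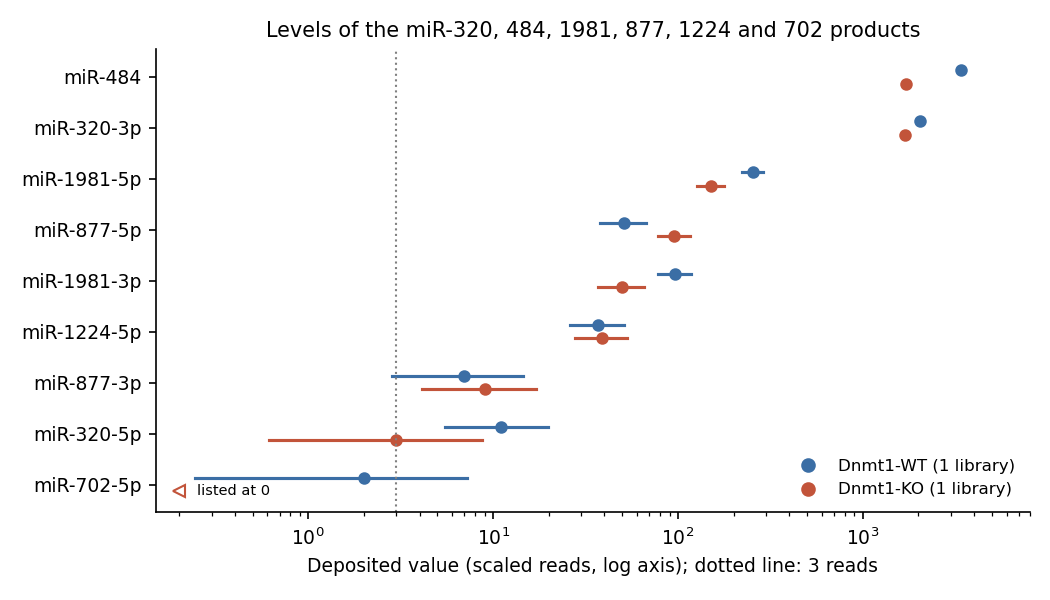
Deposited value of each member (scaled reads, log axis) in the *Dnmt1*-WT and the *Dnmt1*-KO library, with bars for the exact 95% Poisson interval of the reads and a dotted line at 3 reads. On this deposited scale, miR-484, the 2 arms of miR-1981 and miR-320-3p are lower in KO with bars that do not overlap, and miR-877-5p is higher. The bars of miR-1224-5p and of the 3 lowest entries overlap between the libraries. The KO library has fewer reads, and as a share of all reads miR-320-3p was 0.0354% in WT and 0.0357% in KO.

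miR-484 was the abundant member with the lower ratio. Its KO/WT ratio on the deposited scale was 0.503 (95% counting interval 0.474 to 0.533), a change of -49.7%. The interval includes 0.5, so the depth did not place it on a side of a 2-fold difference. In RNA of whole tissue, fewer cells of a type and less RNA per cell cannot be told apart, here and in the ratios that follow. Of the 134 other mature entries with a mean of at least 1000 over the 2 libraries, 10 (7.46%) had a lower ratio than miR-484 and 124 a higher one. This rank does not depend on how the libraries are scaled. The 134 had a median ratio of 0.921, with quartiles at 0.705 and 1.26.

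miR-320-3p was close to the middle of those entries. Its ratio was 0.835 (0.783 to 0.891), a change of -16.5%, and 52 of the 134 (38.8%) were lower. On the deposited scale 40 of the 134 (29.9%) were nearer to a ratio of 1 than miR-320-3p, and 118 (88.1%) were nearer than miR-484. With equal totals these shares were 2.24% for miR-320-3p and 72.4% for miR-484, and without miR-143-3p in the totals 12.7% and 80.6%. With equal library totals the ratio of miR-320-3p became 1.01, with an interval of 0.945 to 1.08, so its direction depended on the scaling. That of miR-484 became 0.607 (0.573 to 0.644) and stayed below 1 under all 4 scalings.

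Compared with each other, these 2 members differed in a way that no scaling alters. There were 1.67 reads of miR-484 for each read of miR-320-3p in *Dnmt1*-WT and 1.004 in *Dnmt1*-KO. The quotient of both was 0.602, with a 95% interval of 0.552 to 0.656 from counting error alone. The 2 abundant miRNAs made without Drosha therefore did not share 1 ratio between these libraries. Without a second library of each genotype, this difference could not be set against the spread between animals.

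The other arm of the miR-320 hairpin was read rarely. miR-320-5p made up 11 of 2038 reads of the hairpin in WT and 3 of 1706 in KO, and the 3p product held 99.5% (exact interval 99.0 to 99.7%) and 99.8% (99.5 to 99.96%). The ratio of miR-320-5p was 0.273, with an interval from 0.0486 to 1.03 that includes 1, so a difference was not detectable at this depth.

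Among the mirtrons, the products of *Marc2* and *Abcf1* introns went opposite ways. miR-1981-5p had a KO/WT ratio of 0.594 (0.482 to 0.729), or -40.6%, and miR-1981-3p a ratio of 0.518 (0.360 to 0.736), or -48.2%. Both arms of this hairpin were thus lower in KO. The 5p product held 72.5% of the reads of the hairpin in WT (67.5 to 77.1%) and 75.1% in KO (68.6 to 80.9%), intervals that overlap widely.

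miR-877-5p had a ratio of 1.87 (1.32 to 2.68), which was the highest among members with a mean of at least 10. Its interval excluded 1 and included 2. miR-877-3p, with 7 and 9 reads, had a ratio of 1.29 (0.424 to 4.04). The 5p product held 87.9% of the reads of this hairpin in WT (76.7 to 95.01%) and 91.4% in KO (84.4 to 96.0%). In WT there were 0.201 reads of miR-877-5p for each read of miR-1981-5p, and in KO 0.635. The quotient was 3.15 (2.13 to 4.68 from counting error), which also does not depend on scaling.

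miR-1224-5p, from the *Vwa5b2* intron, had a ratio of 1.05 (0.651 to 1.69). With 37 and 39 reads, this interval includes both an equal level and a 1.5-fold difference in either direction. miR-702-5p rested on 2 reads in WT and none in KO. Both values are at or under the floor of 3 reads, equal to a share of 5.24e-05% in WT and 6.29e-05% in KO, and no fold is given.

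**Figure D3:**
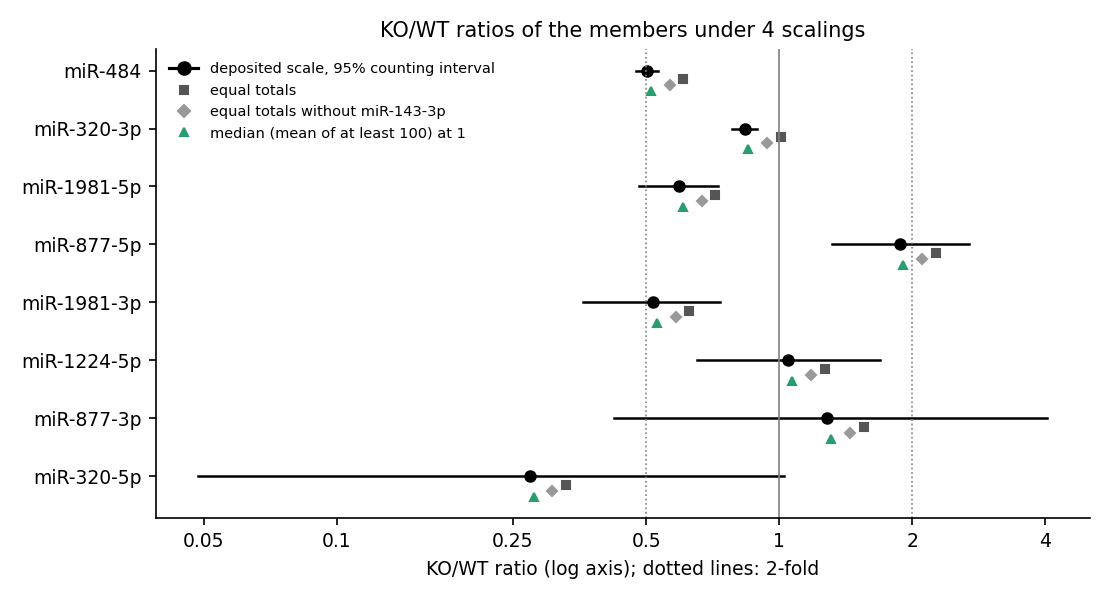
KO/WT ratio (log axis) of the 8 members above 0 in both libraries, with the exact 95% counting interval on the deposited scale as a black bar and the ratio under 3 other scalings as smaller symbols. miR-484 and the 2 arms of miR-1981 lie below 1 and miR-877-5p above 1 under all 4 scalings, while miR-320-3p moves from 0.835 to 1.01.

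Counted together on the deposited scale, no member was at least 2-fold higher in *Dnmt1*-KO, where 26.1% of all 1080 mature entries were. With equal totals 1 of 9 was, miR-877-5p at 2.26, where 31.2% of all mature entries were. Without miR-143-3p in the totals the same entry stood at 2.11, and the share of all mature entries was 28.2%. The deposited values of 2 of the 9, miR-320-5p and miR-702-5p, were lower by 2-fold or more, compared with 22.0% of all mature entries. Neither is a detectable difference at this depth, since the interval of miR-320-5p includes 1 and miR-702-5p is under the floor. Low values make up much of both shares. With a mean of at least 10 over the libraries, 6 members remained, and none was 2-fold higher or lower on the deposited scale. The share was 11.4% higher and 8.99% lower over the 534 mature entries of that mean. Within 1.5-fold of an equal level were 2 of the 6, miR-320-3p and miR-1224-5p, in contrast to 55.2% of the 534. With equal totals miR-1981-5p was a further one, making 3 of 6 beside 51.3% of the 534, and without miR-143-3p in the totals 3 of 6 beside 53.4%. The median log2((KO + 1)/(WT + 1)) of the 6 members was -0.50, and that of the 534 was 0.06. With 6 entries from 5 hairpins, 2 of them arms of the same hairpin, these counts describe the members and do not set them apart from other miRNAs.

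**Figure D4:**
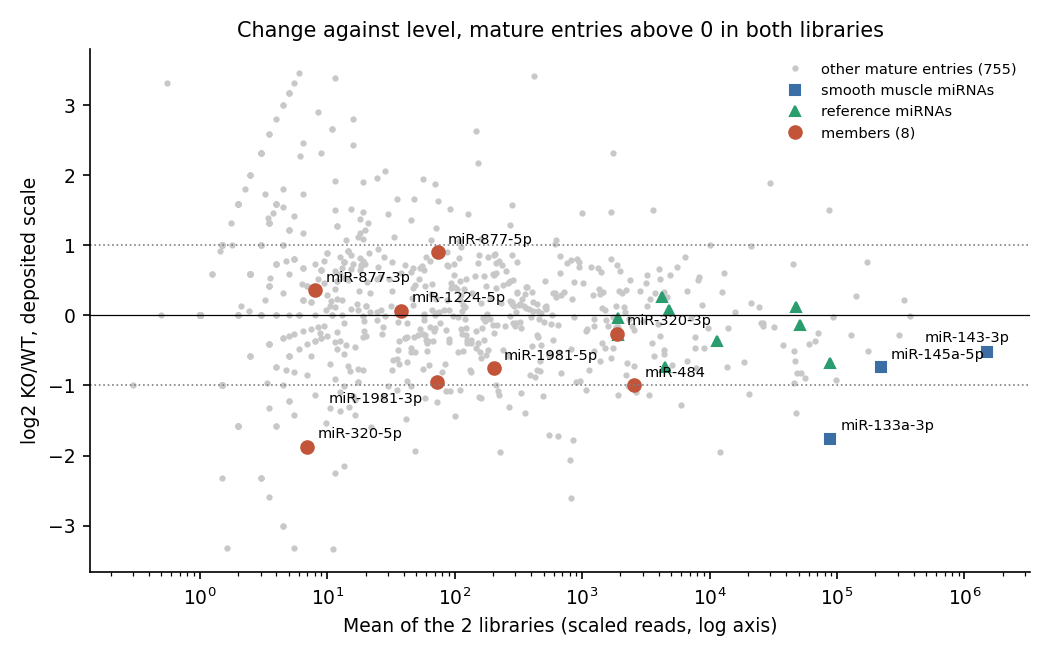
log2 KO/WT ratio on the deposited scale against the mean of the 2 libraries (log axis) for mature entries above 0 in both, with 8 members in red, 3 smooth muscle miRNAs as blue squares and 9 reference miRNAs as green triangles. The members lie within the range of the other entries of similar level, and the spread of all entries widens toward low levels.

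The members were also set beside 3 canonical miRNAs of smooth muscle, which were chosen with earlier results of these data known. They do not stand for canonical miRNAs in general, since the 134 other mature entries with a mean of at least 1000 had a median ratio of 0.921. miR-143-3p and miR-145a-5p, made from neighbouring hairpins and abundant in contractile smooth muscle, had ratios of 0.694 (0.692 to 0.695) and 0.598 (0.594 to 0.601). miR-133a-3p, a muscle miRNA, had a ratio of 0.295 (0.292 to 0.298). The ratio of miR-484 was thus lower than those of miR-143-3p and miR-145a-5p and higher than that of miR-133a-3p, and the ratio of miR-320-3p was higher than all 3. These orders hold under every scaling, since a scaling multiplies each ratio by the same factor.

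miR-484 and miR-320 are often used as reference miRNAs in quantitative PCR, so 9 canonical miRNAs used in the same way were set beside them. Their ratios ran from 0.601 (miR-93-5p) to 1.199 (miR-423-5p), with a median of 0.910. On the deposited scale none was 2-fold higher or lower, and 7 of 9 were within 1.5-fold. The share on that scale was 63.4% over the 134 other mature entries whose mean reached 1000. With equal totals the reference ratios ran from 0.726 (miR-93-5p) to 1.448 (miR-423-5p), so all 9 were within 1.5-fold. Without miR-143-3p in the totals all 9 were as well, from 0.677 to 1.350. miR-484 stayed outside 1.5-fold under both, at 0.607 and 0.566. The ratio of miR-484 was below all 9, with a counting interval apart from each of theirs. That of miR-320-3p was above 4 and below 5, and its interval overlapped those of miR-103-3p and miR-423-3p. Among mirtrons, miR-877-5p had a ratio above all 9, with an interval apart from each of theirs. Both arms of miR-1981 had ratios below all 9, but their intervals include those of miR-16-5p and miR-93-5p, so that order is within counting error. miR-1224-5p was above 6 of them, with an interval too wide to place it.

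A further list held miRNAs whose hairpins come from other RNAs or skip another step. miR-1839 and miR-664 lie in small nucleolar RNAs, and miR-1983 derives from a tRNA. miR-451a needs Drosha, but its hairpin is cut by Argonaute 2 in place of Dicer. miR-1839-5p, at 1941.5 in WT and 1738.1 in KO, had a ratio of 0.895 (0.839 to 0.956), and its other arm, miR-1839-3p, 0.613 (0.418 to 0.888). miR-1983 had a ratio of 1.05 (0.801 to 1.37), miR-664-3p 0.835 (0.638 to 1.09) and miR-664-5p 1.66 (0.840 to 3.38). miR-451a, a red cell miRNA, went from 141.4 to 420.8, a ratio of 2.98 (2.45 to 3.63), and was the 1 entry of 6 that was at least 2-fold higher on the deposited scale. With equal totals miR-664-5p, at 2.005, was another. None was 2-fold lower on either scale.

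Among mature entries whose mean reached 1000, the 3 nearest in log2 ratio to each abundant member were also named. For miR-320-3p they were miR-22-3p (ratio 0.837), miR-423-3p (0.827) and let-7c-5p (0.826). For miR-484 they were miR-29a-3p (0.498), miR-125b-5p (0.513) and miR-378d (0.480). With 2 libraries, likeness means a similar ratio and no more.

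Among miRNAs typical of other cell types, those of leukocytes and red cells were all higher in KO, whereas those of epithelium and neurons were split. The summed value of 3 smooth muscle miRNAs had a KO/WT ratio of 0.657, with 3 of 3 lower in KO. Of 4 leukocyte miRNAs (miR-142a in both arms, miR-223-3p and miR-150-5p), all were higher, and their sum went from 1449.1 to 4525.1, a ratio of 3.12. The sum of 3 red cell miRNAs (miR-451a, miR-144-3p and miR-486a-5p) went from 12735 to 47198.1. Of these sums miR-451a made up only 141.4 and 420.8, so they reflect mostly the other entries. The sum of 8 epithelial miRNAs had a ratio of 1.25, with 4 higher and 4 lower. That of 2 neural miRNAs had a ratio of 1.017, with 1 higher and 1 lower. None of these markers was at 0 in either library. The part of these markers' cells in the ratios of the members was not tested.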

How the data were processed

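Small RNA of jejunal tunica muscularis was sequenced at postnatal day 15, with 1 library for *Dnmt1*-WT and 1 for *Dnmt1*-KO. Per the labels, libraries were made with a TruSeq Small RNA kit and the build was mm10 (GRCm38). Bowtie is named in the submitters' processing notes. The miRNA database release, the handling of reads matching several miRNAs and the scaling are not given in the sources used here.

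The deposited values are reads multiplied by a factor per library, worked out from the values. Of those from 20 to 300, 88.6% in WT and 91.1% in KO were whole multiples (within 0.06) of steps of 1.00284 and 0.997185. The 18 values of the members came within 0.04 of whole reads. The totals were 5741906 (WT) and 4754677 (KO). The authors' fold change column was not used.

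Ratios are deposited KO over deposited WT. Their 95% intervals come from exact (Clopper-Pearson) binomial intervals of the KO share of reads, and intervals of quotients of 2 miRNAs from the normal approximation of log read ratios. Shares of a hairpin's reads carry exact binomial intervals. Since the reads carry no molecular identifiers, these intervals and the floor express counting error alone. No test was made across animals. The 4 scalings were the deposited one, equal totals, equal totals without miR-143-3p, and a median ratio of 1 over those mature entries whose mean reached 100.

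The members and lists were chosen with earlier results of these data known. Named miRNAs are all members, 3 smooth muscle miRNAs, 9 reference miRNAs and 6 entries of other noncanonical miRNAs. Also named are the 3 mature entries nearest in log2 ratio to miR-320-3p and to miR-484, among those whose mean reached 1000. Leukocyte and red cell miRNAs were named as markers, and miR-6944-3p and miR-1982-3p as products of other intron-filling hairpins. Python 3.11.15 with scipy 1.17.1 was used. Sequences are from RefSeq (GRCm38.p6) and introns from GENCODE M21.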

Additional observations from a re-analysis of the deposited data

How the results depend on the processing

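No paired analysis was possible because there was 1 library per genotype. Over 10 results, 50 values were recomputed under alternatives, and 42 of them stayed near the value reported. Near means within the counting interval for a ratio, within 1.5 times for a count, and within the SD over the members for their median. Wide limits are easily met, as for miR-1224-5p (0.651 to 1.69) and for the median (SD 0.73). A pseudocount of 1 hardly alters large values. The 42 therefore do not measure how stable the results are. Another scaling multiplies every ratio by 1 factor, which was 1.21 for equal library totals. With it, the ratio of miR-320-3p turned from 0.835 to 1.01, that of miR-484 moved to 0.607, and 1 member, miR-877-5p, became at least 2-fold higher, at 2.26. With equal totals without miR-143-3p, the 2 ratios moved to 0.941 and 0.566, and the same entry gave 1 member at least 2-fold higher, at 2.11. All mature entries at least 2-fold higher made up 26.1% on the deposited scale, 31.2% with equal totals and 28.2% without miR-143-3p. The count of 2 members at least 2-fold lower fell to 0 with a mean of at least 10 and to 1 with 1 entry per hairpin, since fewer entries are counted. The median log2 ratio of the members ran from -0.75 to -0.23, and was -0.26 with 1 entry per hairpin. Its upper end came with equal totals, which add 0.272 to the log2 ratio of every entry, members or not. The count of members within 1.5-fold, added after seeing the data, was 2 on the deposited scale and 3 with equal totals, with or without miR-143-3p, beside 55.2% of the 534 mature entries on the deposited scale, 51.3% with equal totals and 53.4% without miR-143-3p. Depth limits miR-1224-5p, miR-877-3p and miR-320-5p, whose intervals include an equal level, and miR-702-5p, with 2 reads.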

Other observations

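Hairpins outside the 6 names that also fill an annotated intron base for base were looked up after the values of the members were seen, among the 918 of 1080 mature entries matched to a sequence. There were 8 such hairpins with a listed mature entry, giving 10 entries, of which 1 had a mean of at least 10. This was miR-6944-3p, from an intron of the actin-binding protein gene *Dbn1*, at 11 in WT and 11 in KO. miR-1982-3p, from an intron of *Oaz1*, the antizyme that limits polyamine synthesis, stood at 3 and 6. The other 8 entries had 3 reads or fewer in either library, and no ratio is given for them.

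An entry named as the hairpin of miR-484 was listed at 0 in WT and 1 in KO, which is under the floor of 3 reads. Adding it left the ratio of miR-484 at 0.503.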
